A study of Rattus norvegicus with 2 samples.

Results

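The protein kinase C (PKC) isoforms are a family of serine/threonine kinases, and 8 of their genes were followed here: Prkca and Prkcb of the conventional class, Prkcd, Prkce, Prkch and Prkcq of the nPKC class, and Prkci and Prkcz of the atypical class. They were taken by symbol from a gene expression table of 18049 genes, and all 8 were found. They were chosen with results of the same comparison known, so their differences are given as a description. Rat oligodendrocyte precursor cells (OPCs), the dividing glia from which myelin-forming oligodendrocytes arise, had been electroporated with an siRNA against Hsc70 (siHsc70) or with a scrambled siRNA (siSCR), and total RNA was sequenced from 1 library per group. Both groups were wild-type cells immunopanned from the cortex of pups at postnatal days 2 to 4. Both were kept with 60 nM of the thyroid hormone T3, after withdrawal of PDGF-AA, bFGF and NT3, and day 2 of T3 is the stage given for these immature oligodendrocytes. Per the labels' protocols CNTF and forskolin belong to the growth medium, and they are not among the factors withdrawn. Hsc70 is the constitutive cytosolic HSP70 chaperone, encoded by Hspa8. The siRNA is shown because it defines the treated group, and where it matches rat transcripts was not analysed here.
siHsc70: tcatgactgtcctcatcaa

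Conventional PKCs are switched on by calcium and diacylglycerol, nPKCs by diacylglycerol without calcium, and atypical PKCs by neither, acting instead through partner proteins such as the PAR polarity complex. Diacylglycerol is made by phospholipase C and removed by diacylglycerol kinases. Newly made PKC matures through phosphorylation by PDK1 and the mTORC2 complex, with HSP90 and its partner CDC37 required on the way, and HSP70 is known to bind the dephosphorylated kinase. In oligodendrocytes, phorbol esters, which stand in for diacylglycerol, are known to alter process outgrowth and differentiation, and myelin basic protein is a PKC substrate.

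Total estimated counts were 18130768 in siHsc70 and 19085587 in siSCR. The targeted gene Hspa8 was at 507 CPM in siHsc70 and 1399 CPM in siSCR, where CPM is the read count scaled to a common library total with TMM factors. Genes averaging 1 CPM or more over the pair of libraries are called measured here. Of these 13518 genes, 695 were at least 2-fold lower in siHsc70 (5.14%) and 310 at least 2-fold higher (2.29%). With the deposited TPM the split was 795 lower and 189 higher, and the difference of the median gene was -0.13 in log2(TPM + 1) against -0.0034 in log2(CPM + 1). At least 2-fold means a difference of at least 1 in log2(CPM + 1), siHsc70 minus siSCR, and for genes at low levels the pseudocount of 1 makes a change look smaller. No test can be made between single libraries, so no p-value is given. Ratios carry 95% exact (Clopper-Pearson) intervals for counting error, and how cultures vary was not measured.

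Of the 8 isoforms, 7 were measured, and 2 of these 7 were at least 2-fold lower in siHsc70, against 5.14% of all measured genes. These were Prkcq and Prkcz. None was at least 2-fold higher, against 2.29% of all measured genes. The median difference of the 7 was -0.33, against -0.0034 for all measured genes, and 6 of 7 lay below 0 (5 of 7 with upper-quartile scaling), as did 50.3% of all measured genes. Because the isoforms were chosen from this contrast, nothing is read from these counts. A 1.5-fold rule gave the same counts, 2 lower and 0 higher, against 12.0% and 9.65% of all measured genes. The 5 other measured isoforms thus differed by less than 1.5-fold between the libraries, and Prkch was too low to place.

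**Figure D1:**
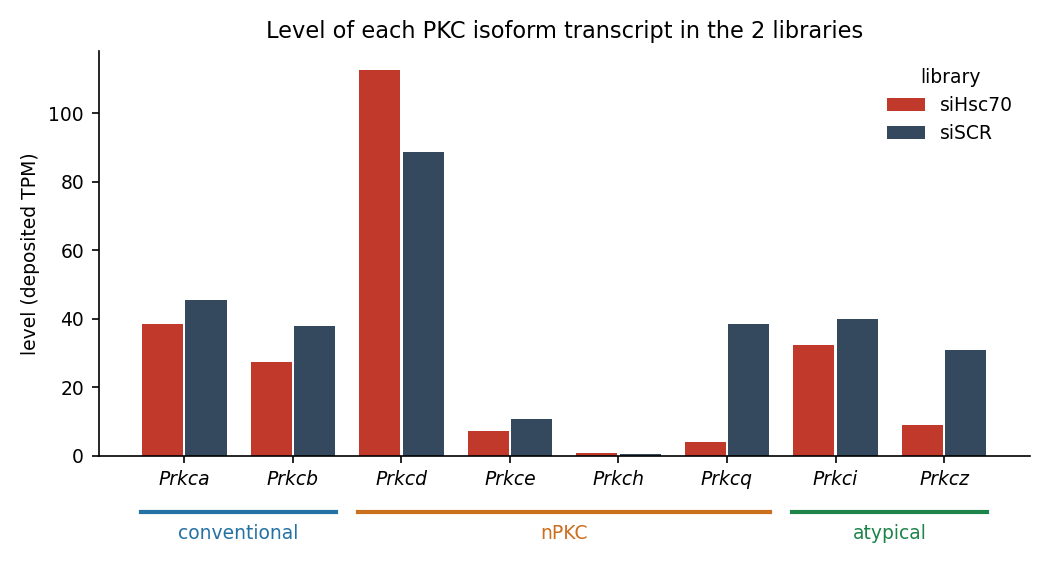
Level of each PKC isoform in deposited TPM (y axis), with the siHsc70 library in red and the siSCR library in dark blue, 1 library each and no error bars. Prkcq stands at 4.11 TPM in siHsc70 and 38.34 TPM in siSCR, and Prkcd is the tallest pair.

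Levels were compared between isoforms in TPM, which is scaled for transcript length. Prkcd, encoding PKC delta, was the highest in both libraries, at 112.56 TPM in siHsc70 and 88.53 TPM in siSCR. In siHsc70 it was followed by Prkca (38.45 TPM), Prkci (32.22), Prkcb (27.42), Prkcz (9), Prkce (7.22), Prkcq (4.11) and Prkch (0.64). In siSCR the order of TPM values was Prkcd, Prkca (45.48), Prkci (39.75), Prkcq (38.34), Prkcb (37.73), Prkcz (30.91), Prkce (10.59) and Prkch (0.39). Counting intervals of neighbours overlapped for Prkcz and Prkce in siHsc70. In siSCR they overlapped for Prkci and Prkcq and for Prkcq and Prkcb. Prkcq was therefore the seventh in siHsc70 and the fourth in siSCR, among a group of similar isoforms there, while Prkcd, Prkca and Prkci held the first 3 places in both libraries.

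The family as a whole differed much less than Prkcq and Prkcz did. Summed over the 8 isoforms, the level was 231.62 TPM in siHsc70 and 291.72 TPM in siSCR, a ratio of 0.794. In CPM the sums were 477 in siHsc70 and 554 in siSCR, a ratio of 0.861 that ran from 0.848 to 0.900 under the other count scalings. Without Prkcq and Prkcz, the other 6 isoforms summed to 218.51 TPM in siHsc70 and 222.47 TPM in siSCR, a ratio of 0.982, which was 1.04 in CPM. These 6 are what remains after the pair chosen for its lower values is set aside, so the near-equal sum is a description only. Within it, Prkcd was 24.03 TPM higher in siHsc70, while Prkca, Prkcb, Prkce and Prkci together stood at 105.31 TPM in siHsc70 and 133.55 TPM in siSCR. Of the summed TPM difference of the 6 isoforms that were lower in TPM, Prkcq made up 40.6% and Prkcz 26.0%. These TPM values include the shift of the median gene, -0.13 in log2(TPM + 1). The ratio of Prkca was 0.845 in TPM and 0.958 in CPM, and that of Prkci was 0.811 in TPM and 0.894 in CPM.

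The make-up of the pool, which does not depend on the scaling of a library, shifted toward Prkcd. Its share of the summed TPM was 48.6% in siHsc70 and 30.3% in siSCR. The share of Prkcq was 1.77% in siHsc70 and 13.1% in siSCR, and that of Prkcz was 3.89% in siHsc70 and 10.6% in siSCR. By class, nPKC isoforms held 53.8% in siHsc70 and 47.3% in siSCR, although Prkcq belongs to that class. Atypical isoforms held 17.8% in siHsc70 and 24.2% in siSCR, and conventional isoforms 28.4% in siHsc70 and 28.5% in siSCR. Prkcd transcripts outnumbered those of Prkcq, per length, 27.4 to 1 in siHsc70 and 2.31 to 1 in siSCR.

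**Figure D2:**
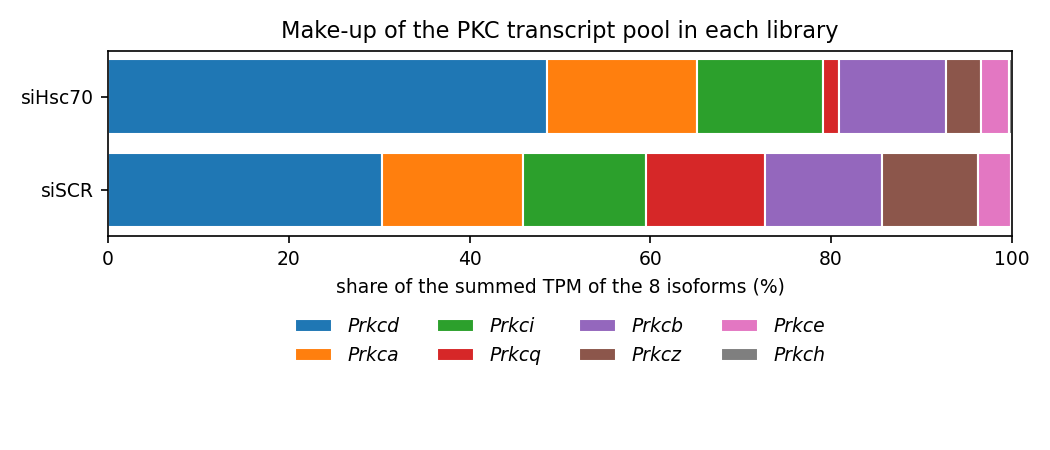
Share of each isoform in the summed TPM of the 8 PKC isoforms (x axis, percent), with siHsc70 in the upper bar and siSCR in the lower bar. The Prkcd segment spans 48.6% in siHsc70 and 30.3% in siSCR, and the Prkcq segment 1.77% in siHsc70 and 13.1% in siSCR.

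Among the conventional isoforms, Prkca (gene ID 24680) encodes PKC alpha, a widely expressed calcium-dependent kinase. It was at 169 CPM in siHsc70 and 177 CPM in siSCR, with a ratio of 0.958 (0.912 to 1.01), an interval that included 1. The ratio was 0.947 (0.901 to 0.994) with DESeq2 size factors and 0.942 (0.897 to 0.990) with total count, where the intervals lay below 1. Its difference of -0.062 was 0.00057 with upper-quartile scaling. Whether Prkca differed beyond counting error thus depended on the scaling. Prkcb (gene ID 25023) encodes PKC beta, whose splice forms betaI and betaII are not separated in a gene-level table. It was at 39.8 CPM in siHsc70 and 50.1 CPM in siSCR, 1.26-fold lower (1.14 to 1.39).

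Among the nPKC isoforms, Prkcd (gene ID 170538) was the one measured isoform with the higher value in siHsc70. It was at 157 CPM in siHsc70 and 112 CPM in siSCR, 1.40-fold higher (1.33 to 1.48), and 87.0% of all measured genes had a lower difference. PKC delta is known in other cells for roles in apoptosis and stress signalling. Prkce (gene ID 29340), encoding PKC epsilon, was at 9.84 CPM in siHsc70 and 13.1 CPM in siSCR, 1.33-fold lower (1.09 to 1.62). Prkch (gene ID 81749), encoding PKC eta, had 20 counts in siHsc70 and 12 counts in siSCR, and its ratio of 1.78 had an interval (0.830 to 4.0) that included 1.

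Prkcq (gene ID 85420) encodes PKC theta, best known for signalling downstream of the T cell receptor. It had 129 counts in siHsc70 and 1167 counts in siSCR, or 7.17 CPM in siHsc70 and 60.7 CPM in siSCR. This was 8.46-fold lower (7.04 to 10.2), a difference of -2.92, and 14 of the 13518 measured genes had a lower one. Counts per FPKM unit, which follow the length used for a gene and the library size, were 60.3 for Prkcq in siHsc70 and 63.4 in siSCR. Over all genes at 1 FPKM or more, the median of this quantity was 43.9 in siHsc70 and 46.6 in siSCR, so the length assigned to Prkcq was close to equal in both libraries. Of 6 T cell markers, the 3 found (Cd4, Cd8a and Lck) had 19 counts in siHsc70 and 14 counts in siSCR in sum, and Cd8a was at 0 in siHsc70. None of these 3 reached a mean of 1 CPM. Cd3e, Cd3g and Zap70 were not found among the 18049 genes.

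Among the atypical isoforms, Prkci (gene ID 84006) encodes PKC iota, a kinase of the PAR polarity complex. It was at 75.3 CPM in siHsc70 and 84.3 CPM in siSCR, 1.12-fold lower (1.04 to 1.20). Its difference of -0.16 was -0.098 with upper-quartile scaling, where the ratio of 0.933 had an interval (0.868 to 1.004) that included 1. Prkcz (gene ID 25522) encodes PKC zeta and, from an internal start known in brain, the shorter kinase PKM zeta. The table gives a single value for both. Prkcz had 314 counts in siHsc70 and 1083 counts in siSCR, or 17.5 CPM in siHsc70 and 56.3 CPM in siSCR. This was 3.22-fold lower (2.84 to 3.67), a difference of -1.63, and 235 measured genes had a lower one. In TPM, the ratio of Prkcz to its closest relative Prkci was 0.279 in siHsc70 and 0.778 in siSCR.

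**Figure D3:**
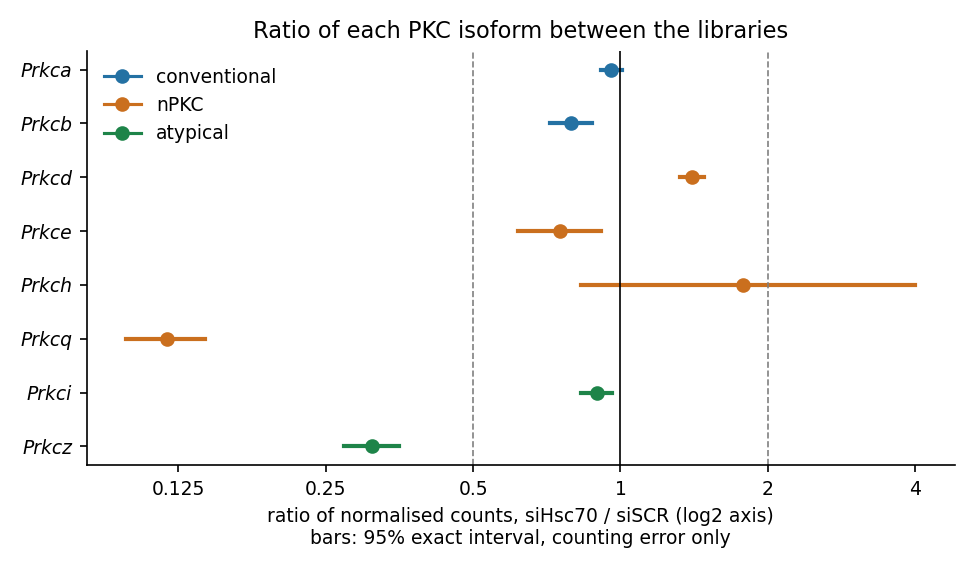
Ratio of normalised counts, siHsc70 over siSCR (x axis, log2 scale), for each isoform (y axis), with bars for the 95% exact interval from counting error and dashed lines at 2-fold. Prkcq at 0.118 and Prkcz at 0.310 lie beyond the lower dashed line, and the intervals of Prkca and Prkch include 1.

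**Figure D4:**
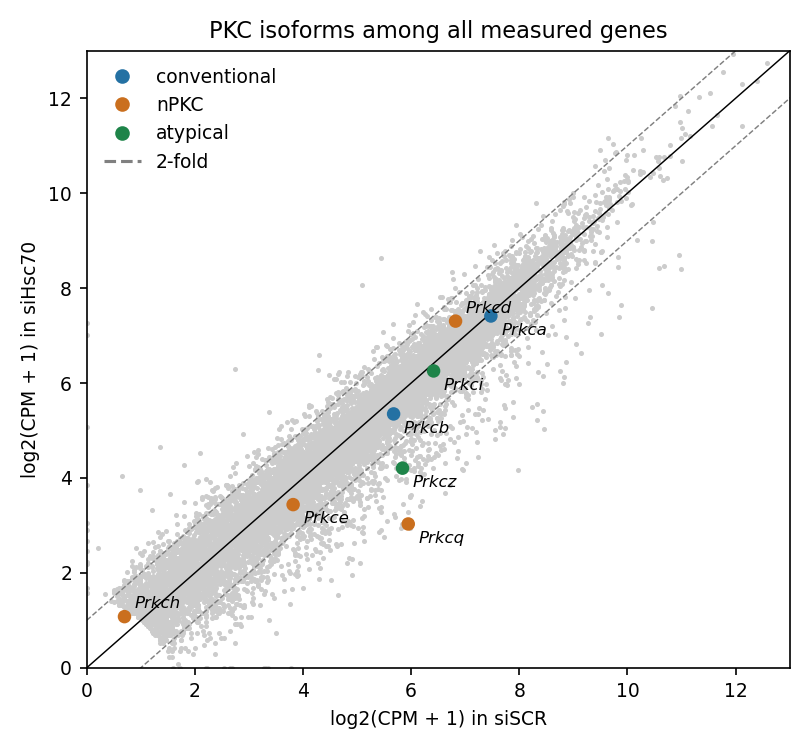
Each measured gene (grey) and the PKC isoforms (coloured by class) by log2(CPM + 1) in siHsc70 (y axis) and siSCR (x axis), with dashed lines at 2-fold. Prkcq and Prkcz fall below the lower dashed line, whereas Prkcb, at 50.1 CPM in siSCR, lies inside the lines.

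The promoters of the pair that was lower are shown because both differed in this comparison while their closest relatives, Prkcd and Prkci, differed by less than 1.5-fold. They are the 250 bases before the RefSeq gene start (build GRCr8), found for 6 of the 8 isoforms, and are written 5′ to 3′ on the strand of the gene with motif matches in capitals. The Prkcq window is chr17:72288509-72288758 and the Prkcz window is chr5:171212675-171212924, both on the minus strand.
Prkcq: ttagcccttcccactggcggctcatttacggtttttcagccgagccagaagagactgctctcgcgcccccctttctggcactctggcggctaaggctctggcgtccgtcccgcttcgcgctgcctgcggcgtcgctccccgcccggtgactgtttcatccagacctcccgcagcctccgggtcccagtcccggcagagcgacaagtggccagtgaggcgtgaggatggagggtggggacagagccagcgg
Prkcz: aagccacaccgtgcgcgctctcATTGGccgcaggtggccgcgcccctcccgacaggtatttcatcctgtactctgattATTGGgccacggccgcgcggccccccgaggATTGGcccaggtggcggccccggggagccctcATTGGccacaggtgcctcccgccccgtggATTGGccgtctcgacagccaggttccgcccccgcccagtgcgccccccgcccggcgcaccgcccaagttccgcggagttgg

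The capitals in Prkcz are CCAAT boxes, all of them read as ATTGG on this strand. There are 5 in the Prkcz window, and 0.179% of the 33469 promoters hold as many, while 34.0% hold at least 1. The other 5 isoforms with a window, Prkcq included, have 0. The motifs searched on both strands were the CCAAT box (CCAAT), the core of a heat shock element (GAANNTTC and TTCNNGAA), a SOX site (ACAAAG and ACAATG) and the TPA response element (TGAGTCA). The last 3 have 0 matches in all 6 windows, and at least 1 match is held by 13.5%, 25.3% and 4.05% of all promoters in that order. The motif letters do not overlap each other in Prkcz. The CCAAT box was added after the sequences had been read, and a match is a description of these letters, not a site. All 6 windows are rich in G and C, from 66.8% for Prkcq and Prkci to 74.8% for Prkca, against a median of 51.2% over all promoters.

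With 2 libraries, likeness to another gene can mean only a similar pair of levels. Nearest to Prkcq by Euclidean distance in log2(CPM + 1) were Fa2h (0.071), which hydroxylates the fatty acids of myelin lipids, Enpp6 (0.096), an early marker of oligodendrocyte differentiation, and Kcnj12 (0.17), a potassium channel gene. Their levels were 6.84, 6.67 and 6.67 CPM in siHsc70, against 62.3, 61.9 and 54.8 CPM in siSCR. Near Prkcz were Soga1 (0.062) and Slain1 (0.099), encoding a microtubule plus-end protein. Their levels were 17.1 and 17.2 CPM in siHsc70, against 54.1 and 60.2 CPM in siSCR.

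Markers of the oligodendrocyte stages differed in the same direction as Prkcq and Prkcz. Their counts stand beside 5.14% of all measured genes at least 2-fold lower. All 7 markers of newly formed oligodendrocytes were at least 2-fold lower and summed to 581 CPM in siHsc70 and 3156 CPM in siSCR. Of 7 measured markers of myelinating oligodendrocytes, 6 were at least 2-fold lower, and the list summed to 1048 CPM in siHsc70 and 5440 CPM in siSCR. Sox10, encoding a lineage transcription factor, was at 98.9 CPM in siHsc70 and 563 CPM in siSCR, and Myrf, encoding a driver of myelin genes, at 62.8 CPM in siHsc70 and 446 CPM in siSCR. Markers of precursors were lower too, 5 of 7 at least 2-fold, with Pdgfra at 119 CPM in siHsc70 and 213 CPM in siSCR. The part of cell stage in the lower values of Prkcq and Prkcz was not tested. Fewer cells of a type and less RNA per cell cannot be told apart in bulk RNA.

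Other cell types that carry PKC isoforms were represented unevenly. Of 8 astrocyte markers 2 were at least 2-fold lower and 0 higher, with a sum of 3050 CPM in siHsc70 and 3648 CPM in siSCR. Without Gfap, the other 7 summed to 2382 CPM in siHsc70 and 2232 CPM in siSCR, mostly from Slc1a3 at 1629 CPM in siHsc70 and 1522 CPM in siSCR. Aqp4, also at least 2-fold lower, was at 20.6 CPM in siHsc70 and 85.0 CPM in siSCR. Aldoc was lower by less, at 137 CPM in siHsc70 and 205 CPM in siSCR. Of the 8, 5 lay above 0, and the list's median was 0.19, or -0.0084 with the deposited TPM. Of 8 neuron markers 2 were at least 2-fold lower and 0 higher, with a sum of 522 CPM in siHsc70 and 764 CPM in siSCR. Most of this sum was Map2, at 340 CPM in siHsc70 and 526 CPM in siSCR. Of these 8, 5 lay below 0 and 3 above. Snap25 was at 20.1 CPM in siHsc70 and 10.0 CPM in siSCR, 2.00-fold higher (1.68 to 2.40) without the pseudocount that kept it under the rule. The 8 fibroblast and mural markers summed to 101 CPM in siHsc70 and 40.7 CPM in siSCR, with 1 of 4 measured at least 2-fold higher and Lum at 0 in siHsc70. Most of this sum was Col1a1, the 1 past the rule, at 73.8 CPM in siHsc70 and 24.3 CPM in siSCR. Of the 4 measured, 3 lay above 0 and 1 below. Of 8 microglia markers 4 were found, but not Cx3cr1, Itgam, C1qa or C1qb. The 4 summed to 4.62 CPM in siHsc70 and 2.29 CPM in siSCR, with Aif1 at 0 in siSCR. Cd68, the 1 measured member, was at least 2-fold higher at 4.34 CPM in siHsc70 and 1.66 CPM in siSCR. Csf1r had 2 counts in siHsc70 and 8 counts in siSCR, and Ptprc had 2 in siHsc70 and 4 in siSCR, so these low members went the other way. Of 6 endothelial markers 5 were found, but not Cldn5. The 5 summed to 5.45 CPM in siHsc70 and 8.99 CPM in siSCR, with Cdh5 at 0 in siHsc70. Of 2 measured, Kdr was at least 2-fold lower, with 5 counts in siHsc70 and 44 counts in siSCR. Apart from those at 0 or not found, the marker genes in this paragraph were named after their values were seen. The part of these cells in the levels of the isoforms was not tested.

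Around the isoforms, 8 lists of pathway genes were read in the same way. They hold 75 measured genes, of which 6 were at least 2-fold lower (8.0%, against 5.14% of all measured genes) and 2 at least 2-fold higher (2.67%, against 2.29%). Their median difference was -0.059. The other 67 did not pass the rule. The count of each list below stands beside the same shares of all measured genes.

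Enzymes that set diacylglycerol did not pass the 2-fold rule. Of 13 measured phospholipase C and Gq genes none passed in either direction. Of these, 9 lay above 0 and 4 below, and the list's median difference was 0.13, against 0.0040 when TPM was used. The member furthest from 0 was Plcb4, a phospholipase C of the Gq pathway, at 12.0 CPM in siHsc70 and 21.8 CPM in siSCR. Plcd4, named after its values were seen, lay furthest above 0, at 146 CPM in siHsc70 and 88.8 CPM in siSCR. It was 1.64-fold higher (1.55 to 1.75). Plch2, a low gene named after its values were seen, had 19 counts in siHsc70 and 47 counts in siSCR, 2.31-fold lower (1.33 to 4.17) without the pseudocount that kept it under the rule. Of 9 measured diacylglycerol kinases none passed, with a median difference of -0.34, or -0.36 with the deposited TPM. Of the 9, 6 lay below 0 and 3 above. Dgka was furthest from 0, at 30.5 CPM in siHsc70 and 48.2 CPM in siSCR, 1.58-fold lower (1.42 to 1.76). Dgkb, named after its values were seen, lay almost as far on the other side, at 88.5 CPM in siHsc70 and 56.3 CPM in siSCR. It was 1.57-fold higher (1.45 to 1.70). Other kinases near the family also stayed within 2-fold. All 6 (the protein kinase D and PKN genes) differed by between -0.88 and 0.38, and Pkn2, encoding a PKC-related kinase, was the lowest at 113 CPM in siHsc70 and 209 CPM in siSCR.

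Among 8 measured genes for other diacylglycerol-binding proteins, Chn2 was the 1 past the 2-fold rule. It encodes beta-chimaerin, a GTPase-activating protein for RAC, and was at 11.6 CPM in siHsc70 and 62.9 CPM in siSCR, 5.44-fold lower (4.69 to 6.33). Among 7 measured anchors and scaffolds, Cavin3, encoding a caveolar protein that binds PKC delta and deposited under its older symbol Prkcdbp, was at 150 CPM in siHsc70 and 49.9 CPM in siSCR. It was 3.00-fold higher (2.79 to 3.23). Of the 7, 4 lay above 0 and 3 below, with a median difference of 0.21. Cavin2, a low gene of this list named after its values were seen, had 12 counts in siHsc70 and 28 counts in siSCR. It was 2.18-fold lower (1.07 to 4.71) without the pseudocount that kept it under the rule.

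Genes that bring PKC to its mature form differed in both directions. Rictor, encoding the defining subunit of mTORC2, was at 39.8 CPM in siHsc70 and 97.0 CPM in siSCR, 2.44-fold lower (2.23 to 2.66). Hsp90aa1, encoding the inducible HSP90, was at 2292 CPM in siHsc70 and 801 CPM in siSCR, 2.86-fold higher (2.81 to 2.92). The other 9 of 11 measured genes of this list did not pass, and the list's median difference was -0.27.

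Of 11 measured PKC substrates, 4 were at least 2-fold lower, against 5.14% of all measured genes. None was at least 2-fold higher, against 2.29%, and the list's median difference was -0.19. Of the 11, 7 lay below 0 and 4 above. Nrgn, named after its values were seen, was at 43.3 CPM in siHsc70 and 21.6 CPM in siSCR. It was 2.01-fold higher (1.78 to 2.27) without the pseudocount that kept it under the rule. Mbp, a myelin gene also counted among the stage markers, was at 414 CPM in siHsc70 and 1968 CPM in siSCR. Marcks, encoding an actin-binding membrane protein released from membranes when PKC phosphorylates it, was at 266 CPM in siHsc70 and 733 CPM in siSCR, 2.76-fold lower (2.67 to 2.85). Add2, encoding the membrane skeleton protein beta-adducin, was at 10.1 CPM in siHsc70 and 22.8 CPM in siSCR, 2.26-fold lower (1.90 to 2.70). Gap43, a growth cone protein gene named after its values were seen, was at 49.7 CPM in siHsc70 and 102 CPM in siSCR. Of 10 measured partners of atypical PKC none passed, against 5.14% lower and 2.29% higher of all measured genes. Nothing is read from this count. Sqstm1, encoding the p62 scaffold, was furthest from 0 at 1784 CPM in siHsc70 and 1020 CPM in siSCR, 1.75-fold higher (1.72 to 1.78).

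**Figure D5:**
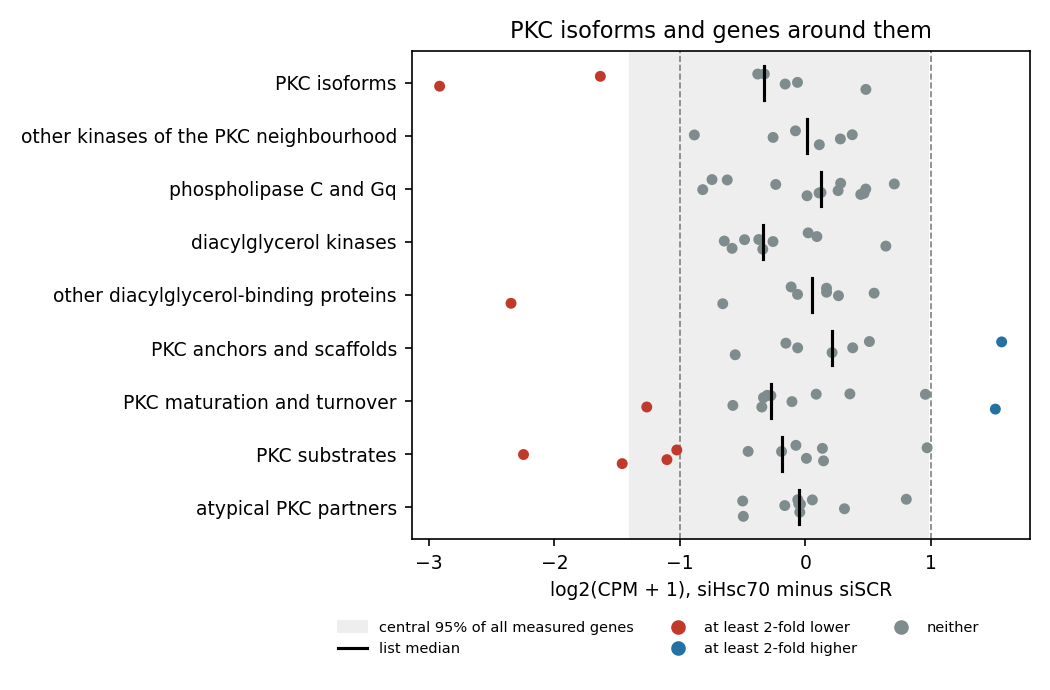
Difference in log2(CPM + 1), siHsc70 minus siSCR (x axis), of each measured gene in the PKC isoform list and the 8 pathway lists (rows), with list medians as black lines and the central 95% of all measured genes shaded. Prkcq at -2.92 lies furthest left, and most pathway genes fall between the dashed lines at 2-fold.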

How the data were processed

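RNA-seq of 2 libraries, 1 per group, was used. The deposited table holds estimated counts, FPKM and TPM per gene and library, per the file headers. The estimated counts are the authors' values before normalisation, and 26.7% in siHsc70 and 26.5% in siSCR are not whole. The deposited FPKM is scaled by the authors for length and library size, and the deposited TPM sums to the same fixed total in each library. The submitters' processing notes name the mouse build mm39, but the gene IDs are rat: 16783 of 18049 were found in RefSeq (GRCr8), the 8 isoforms with the same symbol. Not given in the sources used here are the aligner, the counter, the annotation and the strand setting. Reads shared between related genes could be split in counting.

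Counts were rounded and scaled with TMM (edgeR 4.0.16, R 4.3.3). The factors were 0.992 for siHsc70 and 1.01 for siSCR, and 3 counts, the limit a count of 0 allows, equal 0.167 CPM in siHsc70 and 0.156 CPM in siSCR. Intervals and floors cover counting error only. PCR copies are not independent molecules. The scaling and the difference were tested on simulated data. All members and gene lists were chosen with earlier results of these data known. Named were the 8 isoforms, Hspa8, up to 3 lower and 3 higher members past 2-fold in each pathway list or else the member furthest from 0, 3 nearest genes for each isoform past 2-fold, and 4 stage genes (Sox10, Myrf, Mbp, Pdgfra). Some genes this rule names are not reported here. Alternatives were another pseudocount, other minimum means, DESeq2 1.42.0 size factors, total count and upper-quartile scaling, the deposited TPM and FPKM, and a 1.5-fold rule.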

Additional observations from a re-analysis of the deposited data

How the results depend on the processing

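No paired analysis was possible because each group has 1 library. The count of 2 lower and 0 higher isoforms held under the alternatives run: the pseudocount, both minimum means, the 3 other scalings, the deposited TPM and FPKM, and the 1.5-fold rule. The difference of Prkcq ran from -3.06 to -2.63, with -2.63 from the deposited FPKM, and that of Prkcz from -1.68 to -1.48. With the deposited TPM, where the median gene was at -0.13, the differences of Prkca, Prkcd and Prkci were -0.24, 0.34 and -0.29, and that of Hspa8 was -1.60, or -1.40 with upper-quartile scaling. Pathway genes past the rule were 4 higher with upper-quartile scaling, and 12 lower and 7 higher with the 1.5-fold rule. Over all measured genes, 518 were higher with a pseudocount of 0.1, 189 with the deposited TPM and 202 with the deposited FPKM, while the 1.5-fold rule gave 1626 lower and 1304 higher. Depth limits Prkch, at 20 counts in siHsc70 and 12 counts in siSCR. The 1.5-fold rule and the smaller pseudocount admit more genes by construction. For Prkcq, the deposited FPKM was 2.14 in siHsc70 and 18.41 in siSCR, below its CPM values, so adding 1 shrinks the FPKM difference more. The causes of the other shifts were not tested.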

Other observations

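The measured genes next to Prkcq and Prkcz were looked up in the order of the RefSeq annotation. On one side of Prkcq, Pfkfb3, encoding a regulator of glycolysis, was at 361 CPM in siHsc70 and 342 CPM in siSCR, and Rbm17, a splicing factor gene, was at 65.9 CPM in siHsc70 and 70.1 CPM in siSCR. On the other side, Sfmbt2 and Itih5 were at 5.17 and 4.62 CPM in siHsc70, against 7.59 and 5.92 CPM in siSCR. Around Prkcz, the oncogene Ski was at 155 CPM in siHsc70 and 202 CPM in siSCR, Gnb1, encoding a G protein beta subunit, was at 678 CPM in siHsc70 and 628 CPM in siSCR, and Faap20 and Nadk differed by 0.22 and 0.33 in log2(CPM + 1). None of these 8 genes, 2 measured ones per side of each isoform and chosen by position after the isoforms' values were known, was past the 2-fold rule.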
